A study of Bos taurus with 6 samples.

Results

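The microRNAs (miRNAs) miR-2284 and miR-2285 were followed in the small RNA of cultured bovine fat cell precursors and of the fat cells induced from them. Members were all rows of the known miRNAs (those typed hairpin or mature in the table) whose name begins with bta-miR-2284 or bta-miR-2285, with no use of their values. This took 118 of 771 known miRNA rows, 24 named miR-2284 and 94 named miR-2285, out of 2213 rows in all. The species prefix bta- is left out below, and a final letter or pair of letters tells one member from another.

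The study compared 3 adipocyte with 3 preadipocyte samples of cultured cells from holstein cattle, all at passage 4 to 6 and labelled as adipose tissue. Both groups grew in F12/DMEM medium with 10% fetal bovine serum and 1% antibiotics. To obtain adipocytes, the preadipocytes had been given an inducing mixture of rosiglitazone, insulin, IBMX and dexamethasone, for a time that is not given in the sources used here. No label ties a replicate to its own animal or culture, so the spread between samples of a group may be technical and p-values measure that spread alone.

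A miRNA is cut from a hairpin in a longer transcript and guides silencing of messenger RNAs that pair with its first bases. The miR-2284 and miR-2285 names belong to a large family described in cattle and related ruminants, in which many hairpins of similar sequence lie scattered over the genome. No role in fat cell formation is taken as known for any single member here. The sequences of the members were not analysed here, so copies are told apart by name alone.

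The libraries held 14525284 to 22283754 reads of known and predicted miRNAs. Levels are CPM, counts per 1000000 miRNA reads, after adjustment by the TMM method, which sets libraries to a common level from the bulk of the miRNAs. A read stands for one short RNA, so levels were not divided by length. All 13 miRNAs listed as abundant in adipocytes and all 9 listed for mesenchymal cells were present. The adipocyte list summed to 32110 to 37272 CPM in adipocytes and 29059 to 42801 CPM in preadipocytes, with overlap. The mesenchymal list summed to 497714 to 746690 CPM in adipocytes and 943278 to 1105828 CPM in preadipocytes, without overlap (TMM-adjusted levels of a library can sum to more than 1000000). Most of this sum was miR-21-5p, with means of 559061 CPM in adipocytes and 984603 CPM in preadipocytes. That miRNA took 64% to 80.2% of the miRNA reads of a library, so the sum mainly follows it and not the list as a whole. The endothelial miR-126 reached 43 to 67.9 CPM in adipocytes and 114 to 455 CPM in preadipocytes, and the 6 blood miRNAs together at most 4.97 CPM. The muscle and neural lists summed to at most 52.9 and 95 CPM, the epithelial and liver lists to at most 1.06 and 0.163 CPM, and 1 miRNA each of the muscle, neural and epithelial lists was not among the rows with a read. The part of other cell types in the results below was not tested. Reads of exons, introns, repeats and intergenic sequence took 5.29% of the table in preadipocyte replicate 3, against 18.5% and 18.9% in the other preadipocyte libraries and 8.21% to 12% in adipocytes.

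Most members were barely present. Of the 118 rows, 51 had fewer than 10 reads over all 6 libraries together, and the median row had 12.5. A read was found in every library for 52 rows (44.1%), against 440 of 653 other known miRNA rows (67.4%) and 61 of 129 other miRNAs from the block of numbers given to miRNAs first reported in cattle (47.3%). A read in only 1 library was seen for 19 rows.

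By library, 94, 86 and 80 rows had a read in adipocyte replicates 1, 2 and 3, and 82, 68 and 84 in preadipocyte replicates 1, 2 and 3. The library with the fewest rows, preadipocyte replicate 2, was also the shallowest. Yet the next shallowest, adipocyte replicate 1 with 15035059 miRNA reads, had the most rows. The deepest, preadipocyte replicate 3 with 22283754, had 84. All 3 adipocyte libraries held a read of 66 rows and all 3 preadipocyte libraries of 58, beside 545 and 532 of all 771 known miRNA rows. With a minimum of 10 reads the family counts were 19 and 17, so most of the detected names rested on a few reads.

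Reads in one group alone were found for 19 rows in adipocytes and 8 in preadipocytes. Over all 771 known miRNA rows, the family included, these counts were 55 and 54, and over the 129 other cattle-numbered ones 13 and 18. The 19 adipocyte rows had at most 9 reads in all and 5 in a library. Among the 8 preadipocyte rows, miR-2284j had 72 reads and the other 7 had at most 3. Where a library had 0 reads, its level could still be as high as 0.142 to 0.244 CPM (3 reads), a limit that covers counting error only, so apart from miR-2284j these rows were not detectably different at this depth.

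Few members were abundant, with 7 rows at a mean of 10 CPM or more over the 6 libraries and 21 at 1 CPM or more. The median mean level was 0.125 CPM, where a single read was worth 0.0473 to 0.0814 CPM depending on the library. The other known miRNAs had a median of 0.78 CPM and the other cattle-numbered ones 0.118 CPM. The most abundant members were miR-2285aj-5p, miR-2284m and miR-2285bf, which took places 95, 114 and 116 among the 771 known miRNAs.

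**Figure D1:**
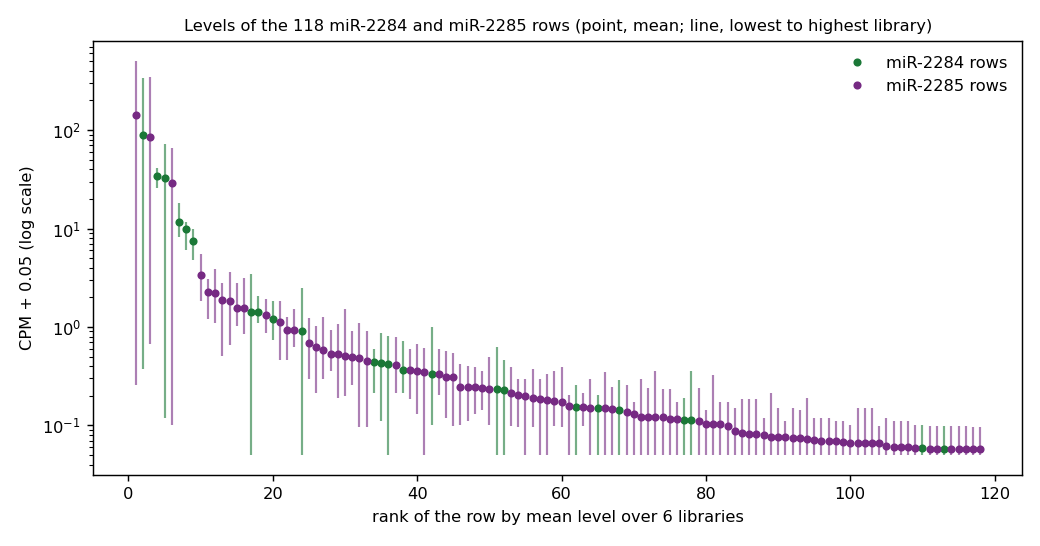
Mean level of each of the 118 rows (points, CPM plus 0.05 on a log axis) against its rank, with lines from the lowest to the highest library; green marks miR-2284 and purple miR-2285 rows. The 7 rows at 10 CPM or more stand at the left, and 5 of them have lines that run from below 1 CPM up to between 65.4 and 502 CPM.

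In 5 of the 7 members at or above 10 CPM, the reads lay in some libraries and were nearly missing from others of the same group. These were miR-2284k, miR-2284m, miR-2285aj-5p, miR-2285av and miR-2285bf, all typed hairpin in the table, and they were grouped after their values were seen. For each of them, in at least 1 of the groups, the highest library exceeded the lowest at least 10-fold (with 0.5 reads added to every count). Among the other known miRNAs at or above 10 CPM this held for 14 of 195 (7.18%). The shares are descriptions, and what sets the reads of a name in a library was not tested.

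Adipocyte replicates 1, 2 and 3 held 40, 7152 and 488 reads of miR-2284m, and the preadipocyte replicates held 161, 4 and 2569. Both groups thus had a library with at least 2569 reads and another with at most 40. For miR-2285bf the adipocyte libraries held 7040, 13 and 1288 reads and the preadipocyte libraries 593, 588 and 11. Its low libraries, adipocyte replicate 2 and preadipocyte replicate 3, were the highest libraries of their groups for miR-2284m.

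The reads of miR-2285aj-5p numbered 6, 7 and 4 in adipocytes and 5127, 6161 and 10 in preadipocytes. It was abundant in preadipocyte replicates 1 and 2 alone, and preadipocyte replicate 3 was close to the adipocyte libraries. The counts of miR-2284k were 9, 1419 and 1408 in adipocytes and 1, 4 and 929 in preadipocytes, those of miR-2285av 1223, 7 and 1 and 671, 803 and 3. Every library with at least 929 reads of miR-2284k had at most 7 of miR-2285av, and every library with at least 671 of miR-2285av had at most 9 of miR-2284k.

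Summed, the same names varied far less. Over the 5 rows together the adipocyte libraries held 8318, 8598 and 3189 reads and the preadipocyte libraries 6553, 7560 and 3522. The highest of these sums was 2.7 times the lowest, where the single rows differed 640-fold (miR-2285bf) to 1788-fold (miR-2284m). The sum of miR-2284k and miR-2285av was 1232, 1426 and 1409 reads in adipocytes and 672, 807 and 932 in preadipocytes, or 66.9 ± 5.52 and 56.2 ± 9.92 CPM (SD, n = 3 each), with overlap between the groups on that scale. With library totals alone the groups of this sum did not overlap. Its log2 ratio of group means was then 0.88, beside a median of 0.62 over all miRNAs tested. The sum of miR-2284m, miR-2285bf and miR-2285aj-5p was 7086, 7172 and 1780 reads in adipocytes and 5881, 6753 and 2590 in preadipocytes. This sum was lowest in replicate 3 of either group. Both smaller sets were formed after the counts were seen. Names put together because they alternate give steadier sums by that choice.

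A different name led the sum in different libraries. The largest was miR-2285bf in adipocyte replicate 1 (84.6% of the 5 rows' reads), miR-2284m in adipocyte replicate 2 (83.2%) and in preadipocyte replicate 3 (72.9%), and miR-2285aj-5p in preadipocyte replicates 1 and 2 (78.2% and 81.5%). In adipocyte replicate 3 miR-2284k and miR-2285bf were near each other, with 44.2% and 40.4%. The 2 leading names held 84.5% to 99.7% of the 5 rows' reads in each library.

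**Figure D2:**
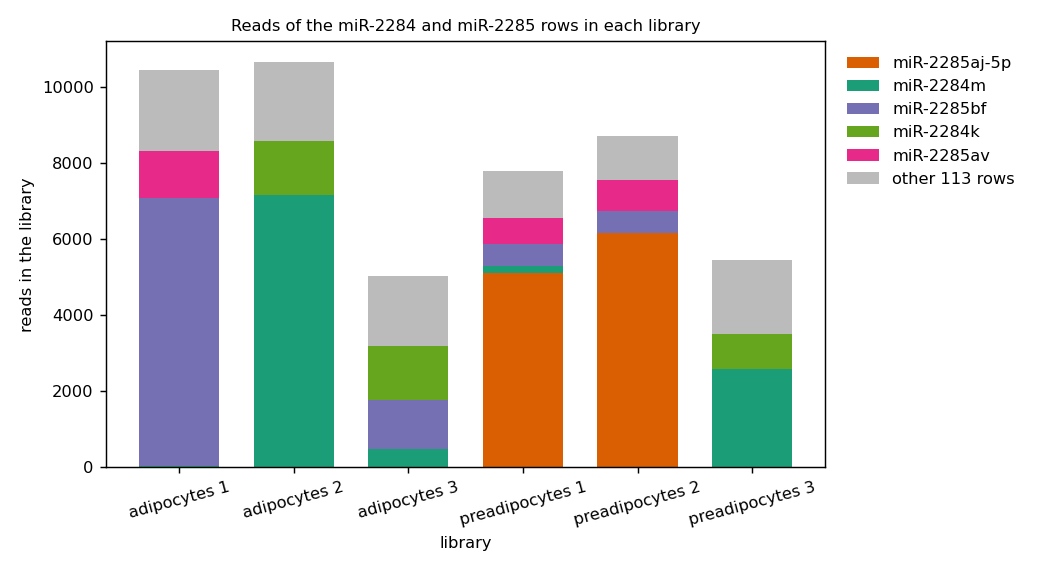
Stacked bars of the reads of the family in each of the 6 libraries, with a colour for each of the 5 members whose reads lay in some libraries of a group and not in others, and grey for the other 113 rows. The colour that fills the bar changes from library to library, within groups as well as between them, while the bars end between 5031 and 10673 reads.

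The whole family took a small part of the miRNA reads, at most 0.0706% in a library. It summed to 10443, 10673 and 5031 reads in the adipocyte replicates and 7789, 8731 and 5467 in the preadipocyte replicates, or 427 ± 147 and 526 ± 189 CPM (SD, n = 3 each). The groups overlapped, and the log2 ratio of the group means was -0.30 with TMM scaling and 0.36 with library totals alone. In bulk samples, fewer cells that make these RNAs and less RNA per cell cannot be told apart.

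Divided by name, miR-2284 rows summed to 241 ± 210 CPM in adipocytes against 143 ± 131 CPM in preadipocytes, and miR-2285 rows to 185 ± 222 and 383 ± 310 CPM. The log2 ratios of the group means were 0.76 and -1.05. Both moved widely with single libraries. The miR-2284 ratio was -0.21 without adipocyte replicate 2, 0.41 and 0.42 without preadipocyte replicates 1 and 2, 1.17 without adipocyte replicate 1 and 1.84 without preadipocyte replicate 3. The miR-2285 ratio was -2.71 and -0.53 without adipocyte replicates 1 and 2, and -0.45 and -1.58 without preadipocyte replicates 2 and 3. With library totals alone the ratios were 1.52 and -0.42. Without the 5 rows above, the ratios were 0.11 and -0.28. The other 113 rows summed to 99.3 ± 5.64 CPM in adipocytes, beside 99.6 ± 17.6 CPM in preadipocytes. These sums ran from 84.5 to 119 CPM over the libraries, and the groups overlapped on this TMM scale. With library totals alone the groups did not overlap, and the log2 ratio of these sums was 0.65, beside a median of 0.62 over all miRNAs tested.

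Among the steady members miR-2284x was the most abundant. Its level was 40.7, 32.1 and 33.5 CPM in adipocyte replicates 1, 2 and 3 and 26, 39.3 and 34 CPM in preadipocyte replicates 1, 2 and 3. The groups overlapped, with a log2 difference of adipocytes over preadipocytes of 0.10 (SE 0.30). This member and the next ones, miR-2284z and miR-2284y, are typed mature in the table, and the 5 rows whose reads came and went are typed hairpin. The type did not divide steady from swinging rows over the family. Typed hairpin, miR-2285ae stayed within 1.81-fold between libraries of a group, and miR-2284aa, typed mature, reached 138-fold (0.5 reads added).

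For miR-2284z the adipocyte libraries were close together at 11.7, 12.2 and 11.7 CPM, and the preadipocyte libraries were at 8.2, 8.14 and 18 CPM. Those of miR-2284y were at 10.2, 9.23 and 11.4 CPM and 10.5, 6.03 and 11.7 CPM. Both pairs of groups overlapped, with log2 differences of 0.05 (SE 0.39) and 0.13 (SE 0.34). The differences of miR-2284x, miR-2284y and miR-2284z moved with the scaling. They were negative under upper-quartile scaling (-0.21, -0.15 and -0.24). With library totals alone they were 0.74, 0.76 and 0.73, the groups of miR-2284x and miR-2284y did not overlap, and none passed (edgeR adjusted p = 0.157, 0.122 and 0.202). No direction is given to these 3.

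The level of miR-2284ab was 9.42, 9.89 and 9 CPM in the adipocyte and 4.78, 4.89 and 6.35 CPM in the preadipocyte libraries. All 3 adipocyte libraries lay above all 3 preadipocyte libraries, with means of 9.44 ± 0.447 and 5.34 ± 0.878 CPM (SD, n = 3 each). The log2 difference was 0.82 (SE 0.26), which did not pass a threshold of 0.05: adjusted by the method of Benjamini and Hochberg (BH) over all 414 miRNAs tested, edgeR's p was 0.085. The adjusted p was 0.0224 with library totals alone (1.47), where 23.4% of all miRNAs passed, and 0.0296 without preadipocyte replicate 3 (0.96), where 31.8% passed. In DESeq2 it was 0.019 (0.86), where 22% passed. In every other setting that tested miR-2284ab it did not pass. The edgeR BH-adjusted p was 0.22 with upper-quartile scaling (0.52), 0.184 with the replicate number as a block and 0.179 with no filter. With any library other than preadipocyte replicate 3 left out, it was 0.192 to 0.244. Its reads, 190, 209 and 176 against 70, 60 and 104, were the highest counts among the tested members whose groups did not overlap on the TMM scale.

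Apart from miR-2284j, described further on, no other named member of about 1 to 4 CPM passed the test. The level of miR-2285bt was 3.37, 3.17 and 1.79 CPM in the adipocyte and 3.28, 5.46 and 2.69 CPM in the preadipocyte libraries. For miR-2285au these were 2.28, 1.56 and 2.15 CPM and 2.05, 1.06 and 3.79 CPM. For both the groups overlapped, and their log2 differences of -0.45 and -0.21 were positive with library totals alone (0.21 and 0.45). The level of miR-2285ae was 2.48, 3.03 and 2.51 CPM in the adipocyte and 2.12, 1.87 and 1.16 CPM in the preadipocyte libraries, and its log2 difference 0.64 (SE 0.35). All its adipocyte libraries were above all its preadipocyte libraries, and it did not pass (edgeR BH-adjusted p = 0.227).

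Lower values in adipocytes, with no overlap on the TMM scale, were measured for miR-2285aa, miR-2285co and miR-2285dc. The first had 1.49, 1.66 and 0.46 CPM in adipocytes against 2.12, 2.77 and 2.51 CPM in preadipocytes, the second 1.69, 1.18 and 0.614 against 1.71, 3.58 and 1.83 CPM. The level of miR-2285dc was 1.04, 1.14 and 0.972 CPM against 1.71, 1.38 and 2.75 CPM. Their log2 differences were -1.03, -1.02 and -0.89, and none passed (edgeR BH-adjusted p = 0.192, 0.196 and 0.166). Scaled by library totals alone the groups overlapped for all 3. The groups of miR-2285ck (log2 difference -0.77) and miR-2285cl (-0.54, and 0.13 with library totals alone) overlapped.

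**Figure D3:**
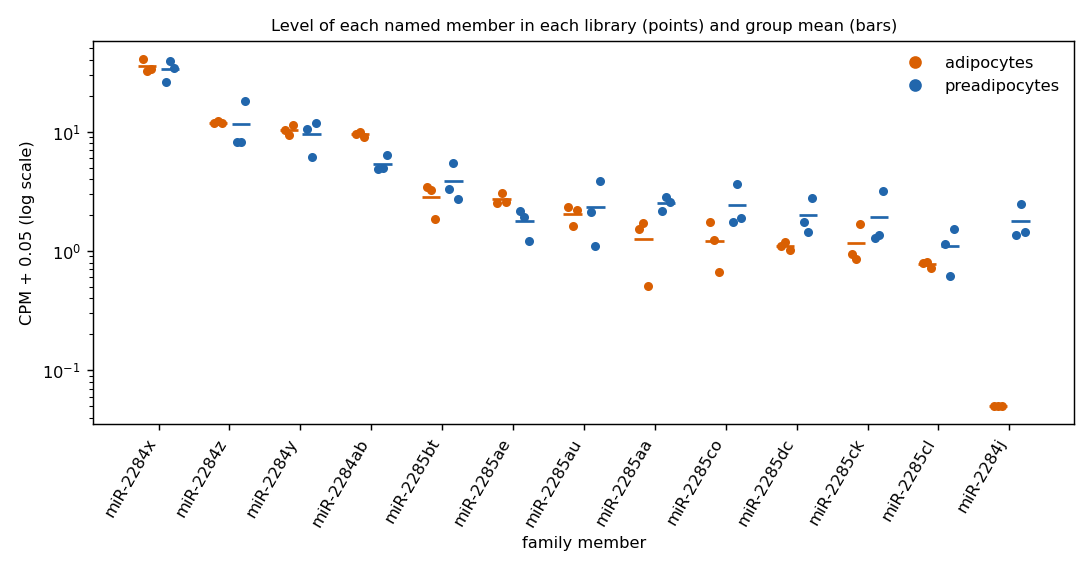
Level of 13 named members in each library (points, CPM plus 0.05 on a log axis; short bars, group means), adipocytes in orange and preadipocytes in blue. The groups of miR-2284x, miR-2284z and miR-2284y overlap, those of miR-2284ab do not, and miR-2284j has no read in any adipocyte library.

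The design asked which miRNAs differ between the 2 cell states. In the edgeR quasi-likelihood test over all 414 miRNAs with enough reads, 1 family member, miR-2284j, passed an adjusted p of 0.05, as lower in adipocytes, and none passed as higher. Over all miRNAs tested, 6.28% passed, 3.86% as higher and 2.42% as lower. The filter on low counts left 24 of the 118 members, 10 named miR-2284 and 14 named miR-2285. Of these 24, 2 (miR-2284j and miR-2284ab) had an unadjusted p below 0.05, against 34.1% of all miRNAs tested. The groups did not overlap for 6 of the 24 on the TMM scale, against 44.7% of all, and for 6 of the 24 with library totals alone, against 46.6%. Estimates were positive for 12 of the 24, and the median log2 difference was -0.09, beside -0.02 over all 414. With library totals alone the medians were 0.58 and 0.62, so the median of the family shifted with that of all miRNAs when the scaling was changed. The member that passed entered the test through its preadipocyte reads alone, so the 24 are not a sample of the family.

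No read of miR-2284j was found in the 3 adipocyte libraries, and preadipocyte replicates 1, 2 and 3 held 19, 30 and 23 reads, or 1.3, 2.44 and 1.41 CPM. The level was at least 33.7-fold lower in adipocytes, taking 3 reads over the group as the limit that a count of 0 allows, and at least 21.8-fold lower with library totals alone. The edgeR BH-adjusted p was 0.0242 (3 libraries against 3). The call was lost without adipocyte replicate 1, 2 or 3 (edgeR BH-adjusted p = 0.14, 0.101 and 0.0625) and without preadipocyte replicate 1 or 2 (0.0772 and 0.0649), and remained without preadipocyte replicate 3 (0.0204). With the replicate number as a block it was also lost (edgeR BH-adjusted p = 0.142). Whether the numbers pair the samples is not labelled. The fitted log2 difference was -7.90 (SE 0.92). It ranged from -8.11 to -7.66 with 1 library left out and was -7.90 under the block. With no adipocyte read, these values depend on the small count edgeR adds. They are no bounds, and their narrow range is no support for the call. In RefSeq the gene of miR-2284j overlaps that of miR-2312, which had 2, 0 and 0 reads in adipocytes and 4, 0 and 2 in preadipocytes. The reads of both names together were lower in adipocytes. Their log2 difference was -5.56 with an SE of 0.95, and edgeR's BH-adjusted p was 0.0263. Most of the summed reads were those of miR-2284j, so this pass is no independent support.

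The most abundant member, miR-2285aj-5p, missed the filter on low counts, since 2 libraries alone held many of its reads. On the TMM scale its groups did not overlap, at 0.205 to 0.331 CPM in adipocytes against 0.611, 350 and 502 CPM in preadipocytes. Per library total they did, with 7 of 15111228 reads in adipocyte replicate 2 and 10 of 22283754 in preadipocyte replicate 3. With rows of at least 10 CPM tested in place of the usual filter it passed as lower in adipocytes (by -10.17 on the log2 scale, SE 2.37, at an edgeR BH-adjusted p of 0.039, where 21.1% of rows passed), and with no filter it did not (0.0546). Without preadipocyte replicate 3 it passed at -10.56 (SE 0.44, edgeR BH-adjusted p = 5.49e-04), where 31.8% of miRNAs passed. It was also tested, and did not pass, without adipocyte replicate 1, 2 or 3 (edgeR BH-adjusted p = 0.192, 0.185 and 0.132), with log2 differences of -10.01, -10.10 and -10.01. DESeq2 also called it as lower (log2 difference -9.98, BH-adjusted p = 2.05e-10, where 22% of miRNAs passed). The difference rests on preadipocyte replicates 1 and 2. Their reads alone took it past the limit of 10 CPM and, where it was tested with 1 library left out, past the usual filter. These passes are therefore no independent support.

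The other 4 members whose reads came and went had wide errors. Their log2 differences were 2.22 (SE 1.94) for miR-2285bf, 1.29 (SE 2.24) for miR-2284k, 1.12 (SE 2.11) for miR-2284m and -0.87 (SE 2.32) for miR-2285av, none past the threshold. Leaving out 1 library at a time moved all 4. The range was -2.07 (without adipocyte replicate 2) to 4.45 (without preadipocyte replicate 3) for miR-2284m and 0.66 to 7.86 (without preadipocyte replicates 2 and 3) for miR-2284k. It was -7.53 to -0.17 (without adipocyte replicate 1 and preadipocyte replicate 2) for miR-2285av and 0.16 to 2.81 (without adipocyte replicates 1 and 2) for miR-2285bf. The other 19 tested members, apart from miR-2284j, had log2 differences of -1.03 to 0.82. Among them miR-2284aa also swung between libraries at a low level, with 0, 72 and 2 reads in adipocytes and 3, 21 and 47 in preadipocytes, while the rest stayed within 4.02-fold between the libraries of a group.

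**Figure D4:**
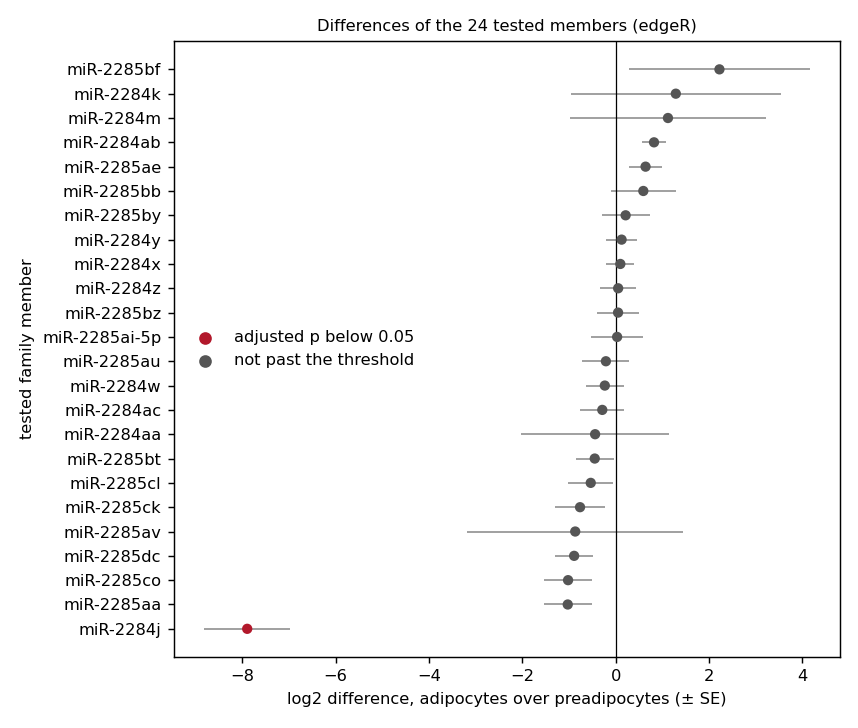
Log2 difference of adipocytes over preadipocytes with its SE (lines) for the 24 tested members, red for the member past an adjusted p of 0.05. The fitted point of miR-2284j depends on the small count that edgeR adds to its adipocyte libraries and is no bound, and the longest lines belong to miR-2284k, miR-2284m, miR-2285av and miR-2285bf.

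With preadipocyte replicate 3 left out, 4 of 28 tested members passed, 2 higher (miR-2284ab and miR-2284t-5p) and 2 lower (miR-2284j and miR-2285aj-5p), where 148 of 465 miRNAs (31.8%) passed in all. Of these, miR-2284t-5p entered the test through its adipocyte reads alone, and miR-2284j and miR-2285aj-5p through their preadipocyte reads alone. The 28 are thus not a sample of the family. The arms of miR-2284t are separate rows. The 5p arm had 13, 16 and 9 reads in adipocytes and 1, 0 and 5 in preadipocytes, the 3p arm 3, 2 and 3 against 0, 1 and 2. The 5p arm had the higher count in every library but preadipocyte replicate 2, where it had 0 reads and the 3p arm 1.

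The family is spread over many genes in RefSeq. Its assembly ARS-UCD2.0 served here for gene names and neighbours alone, because the table's genome build is not given in the sources used here. RefSeq lists 191 genes under 138 family names, 25 of them with several loci and at most 7 for a name. Of the 117 precursor names behind the 118 rows, 110 matched a RefSeq gene, and 28 RefSeq names were not analysed here. Of the 191 genes, 125 (65.4%) lie within the bounds of a protein-coding gene, beside 65.3% of 841 other miRNA genes, so the family was not set apart by this. Examples are MIR2284X within TIAM1, a regulator of the GTPase RAC1, MIR2284AB within AFF1, a subunit of a transcription elongation complex, and MIR2284J within GRIK4, a glutamate receptor subunit. Strand was not compared.

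Members with several loci had about the same median count as those with 1. The 22 rows whose name has several loci had a median of 12 reads over all libraries and the 89 rows with 1 locus a median of 11. Yet miR-2284y and miR-2284z, both among the steady abundant members, have 7 loci each, while miR-2284x has 1. A read of a name with several loci cannot be placed at one of them from this table.

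Within the family 6 pairs of genes with different names overlap in RefSeq, 4 of them a miR-2284 with a miR-2285 gene and 2 of them miR-2285 genes. MIR2284Y-2 overlaps MIR2285U, MIR2284Y-4 overlaps MIR2285O-3, MIR2284Z-6 overlaps MIR2285Y, MIR2284H overlaps MIR2285O-5, MIR2285AV overlaps MIR2285O-1 and MIR2285Q overlaps MIR2285Z. The reads were unequal between some of these names. Against 74 to 222 reads of miR-2284y in a library, miR-2285u had 0 to 3 and miR-2285o 0 to 11, and against 100 to 294 of miR-2284z, miR-2285y had 1 to 17. Against 1 to 1223 reads of miR-2285av in a library, miR-2285o had 0 to 11. Totals over all libraries were similar for miR-2284h-5p and miR-2285o, at 35 and 32 reads, but preadipocyte replicate 1 held 11 and 0. The name miR-2285o has 5 loci, of which MIR2285O-5 alone overlaps MIR2284H. Summed over overlapping genes, miR-2284z with miR-2285y differed by 0.05 on the log2 scale (SE 0.38). The sum over miR-2284h, miR-2284y, miR-2285av, miR-2285o and miR-2285u differed by -0.65 (SE 0.94). Neither passed (edgeR BH-adjusted p = 0.929 and 0.636).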

How the data were processed

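Small RNA of 6 samples was sequenced, from RNA cut at 18 to 30 nt per the labels' protocols. The deposited table gives, per the file headers, a read count per row and library, which the authors did not normalize, and a TPM value. The deposited TPM values, not used for any result, are the count over a constant per library. The submitters' processing notes name Bowtie2 without a version. The build, the miRNA release, the meaning of the types hairpin and mature and how reads with several matching miRNAs were counted are not given in the sources used here.

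Counts of the 879 known and predicted miRNA rows were tested with edgeR 4.0.16 in R 4.3.3 (TMM, filterByExpr defaults, glmQLFit and glmQLFTest with the group as sole term, two-sided, Benjamini-Hochberg over 414 rows, threshold 0.05). The SE is the log2 difference over the square root of F. Rows of reads by genome feature, which name no gene (5.29% to 18.9% of the table), and Rfam and piRNA rows stayed out. Sums of members have no test. Alternatives were DESeq2 1.42.0, other scalings and filters, a replicate block and leaving out each library. Members were named if past the threshold, among the 12 most abundant or among the 5 next smallest p. The members and lists were chosen with earlier results of these data known. Python 3.11.15 with numpy 2.4.6, pandas 2.3.3 and matplotlib 3.10.9 made the tables and plots.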

Additional observations from a re-analysis of the deposited data

How the results depend on the processing

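The count of 1 family member past the threshold was 2 with library totals alone (1 higher, 1 lower) and 3 in DESeq2 (1 higher, 2 lower, of 44 members with an adjusted p), and 0 to 4 with 1 library left out. The count of 26 over all miRNAs was 49 with upper-quartile factors (15 higher, 34 lower), 97 with library totals alone (88 and 9, against 16 and 10), 45 when rows needed a mean of 10 CPM (20 and 25), 59 with known rows alone (27 and 32), 116 in DESeq2 (59 and 57) and 1 to 148 with 1 library left out. With the replicate number as a block, 0 family members and 1 of all miRNAs passed, and the adjusted p of miR-2284j was 0.142. Deviations from the group means correlated at 0.04, -0.31 and 0.02 between libraries of the same number, and no library correlated best with its own number. Correlations of 3 libraries per group cannot settle whether the numbers pair the samples, and no label says so. The sign turned under the block for miR-2284m (-0.95), and when rows needed a mean of 10 CPM for miR-2284x (-0.072) and miR-2284z (-0.093). With upper-quartile factors it turned for miR-2284x (-0.21), miR-2284y (-0.15) and miR-2284z (-0.24). With library totals alone it turned for miR-2285au (0.45), miR-2285bt (0.21) and miR-2285cl (0.13), and for the family sum (0.36, against -0.30). With 1 library left out the log2 differences ranged from -2.07 to 4.45 for miR-2284m, -0.068 to 0.21 for miR-2284x, -0.14 to 0.32 for miR-2284y, -0.18 to 0.53 for miR-2284z and -0.58 to 0.36 for miR-2285au. The cause of these changes was not tested. Rows detected in all adipocyte and all preadipocyte libraries, 66 and 58, were 19 and 17 with at least 10 reads, 11 and 13 with at least 1 CPM, and 110 and 99 when any library of the group sufficed. Summing rows of identical mature sequence was not run, since sequences were not analysed here. Summing overlapping genes, the smaller sums within the 5 swinging members and leaving out these 5 were chosen after seeing the data. Depth limits rows of a few reads, where a difference was not detectable.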
